A study of Mus musculus with 12 samples.

Results

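Chemokines are small secreted or membrane-tethered proteins that guide leukocytes along a concentration gradient, and their receptors are G protein-coupled receptors on the cells that move. The chemokine and chemokine receptor genes described here are the rows of the deposited expression table whose gene symbol is Ccl, Cxcl, Cx3cl, Xcl, Ccr, Cxcr, Cx3cr, Xcr or Ackr followed by a number. The choice used names only and no measured value. It gave 66 of the 22053 rows in the table, with 60 distinct symbols. Of these, 59 rows lie on chromosomes, 37 of them ligands and 22 receptors. The other 7 rows lie on unplaced scaffolds, are copies of Ccl19, Ccl21a, Ccl21b, Ccl21c and Ccl27a, and were listed at 0 in each of the 12 mice.

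Whole kidneys of C57BL/6 mice were measured by RNA sequencing, with 1 library per mouse and 4 mice in each of 3 groups. Control mice ate the diet without adenine, CKD (chronic kidney disease) mice ate the same diet with 0.2% adenine from 8 to 16 weeks of age, and CKD+Fe mice ate the adenine diet and received iron dextran i.p. each week at 0.5 g/kg. By the study's methods, control and CKD mice were injected with PBS instead, and no group carried a genetic change. The adenine model is a tubular injury by crystals that affects the whole kidney, so a level here is an average over all cells of the organ. In such bulk samples, fewer cells of a type and less RNA per cell cannot be told apart.

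Levels are in FPKM, that is, mapped fragments relative to transcript length and to library size, which the authors deposited for each gene and mouse, and may be compared between genes because they are per length. The depth in reads is unknown. In each group 1 mouse stood apart from the other 3. Control mouse 042301 had 596 genes at least 2-fold from the mean of the rest of its group, CKD mouse 110310 had 806 and CKD+Fe mouse 042702 had 442, against 42 to 225 in the other mice. Results are given with all mice, and the counts also without these 3. The kidney origin of the samples was checked by 8 proximal tubule markers, all found, whose summed level was 2113 to 3289 FPKM in control mice, 533 to 931 FPKM in CKD mice and 579 to 1159 FPKM in CKD+Fe mice.

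Chemokine genes are often divided into inflammatory ligands, which tissue cells and leukocytes make when stimulated, and homeostatic ligands, which are made without stimulation and place lymphocytes and other cells in tissues. CXC ligands that bind Cxcr2 attract neutrophils, most inflammatory CC ligands attract monocytes, macrophages and T cells through Ccr1, Ccr2 and other receptors, and Cxcl9 and Cxcl10 attract activated T cells through Cxcr3. Atypical receptors bind chemokines without the usual G protein signal and remove or store them.

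In control kidneys the ligand RNA was mostly that of 4 genes. Cxcl12, the ligand of Cxcr4, stood at 82.7 ± 17.6 FPKM (SD, n = 4) and made up 35.6% of the summed mean level of all ligands. Cxcl16, a membrane-tethered ligand of Cxcr6, made up 15.7%, Cx3cl1 (fractalkine, the ligand of Cx3cr1) 13.8% and Cxcl14, an epithelial chemokine, 7.77%. Among receptors, Ackr3, an atypical receptor that takes up Cxcl12, held 59.9% of the summed level, with 22.4 ± 6.99 FPKM. Next came Ccr2 at 3.32 ± 1.45 FPKM and Cxcr4 at 3.16 ± 1.23 FPKM, whose ranges over the control mice overlapped.

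The first question was which chemokine genes differ between kidneys with adenine-induced CKD and control kidneys. The summed level of all ligands was 232 ± 16.8 FPKM in control mice, 920 ± 212 FPKM in CKD mice and 738 ± 73.2 FPKM in CKD+Fe mice (SD, n = 4 each). That of all receptors was 37.4 ± 7.78 FPKM, 126 ± 29.3 FPKM and 108 ± 14.5 FPKM. The order of the ligands also changed, and in CKD mice Cxcl16 led with 17.0% of the summed mean level, followed by Ccl6 with 12.4%. Ccr2, Ackr3 and Cx3cr1 then had near equal means of 22.1, 21.5 and 20.9 FPKM, which did not differ beyond their spread.

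Of the 66 rows, 39 (29 ligands and 10 receptors) reached 1 FPKM in at least 4 mice and were tested with limma on log2(FPKM + 1), together with all other genes that did. A log2 fold change below is on that scale, which understates the change of genes with low levels, and a call is an adjusted p under 0.05 over all 13148 genes tested. Against control mice, 31 of the 39 were higher in CKD mice and 1 was lower, where 54.6% of all genes tested were called higher and 13.3% lower. The median log2 fold change of the 39 was 2.02, with a range from -1.01 to 5.44, and that of all genes was 0.50. All CKD mice lay above all control mice for 28 of the 39 and below them for 1, against 44.6% and 10.5% of all genes.

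The filter itself bears on these counts. In 13 of the 39, no control mouse reached 1 FPKM, so these genes passed only through the adenine-fed mice and had to differ, and all 13 were called higher. The 13 are Cxcl1, Cxcl2, Cxcl3, Cxcl5, Cxcl13, Cxcl17, Ccl7, Ccl19, Ccl20, Ccl22, Ccr1, Ccr7 and Cxcr2, and the direction of their calls was set by the filter. Of the 17 that reached 1 FPKM in every control mouse, 11 were higher, 1 was lower and 5 were not called. Of all genes tested, however they passed the filter, 54.6% were higher and 13.3% lower, so the count of 11 is not far from that share. The median log2 fold change of the 17 was 1.41. The other 9 were at 1 FPKM in some control mice, and 7 of them were called higher.

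The shift of 0.50 over all genes depended on the scaling. Under median-of-ratios rescaling it was 0.01, 28 members were higher and 5 lower, and 28.8% of all genes were higher and 29.3% lower. After quantile normalization it was -0.03, 26 members were higher and 4 lower, and 23.3% of all genes were higher and 25.6% lower. The members that gained or lost a call are named with their values below. Without the 3 mice that stood apart, an alternative chosen after the data were seen, 28 members were higher and 1 was lower. The median log2 fold change was then 2.08 for the members and 0.54 for all genes.

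**Figure D1:**
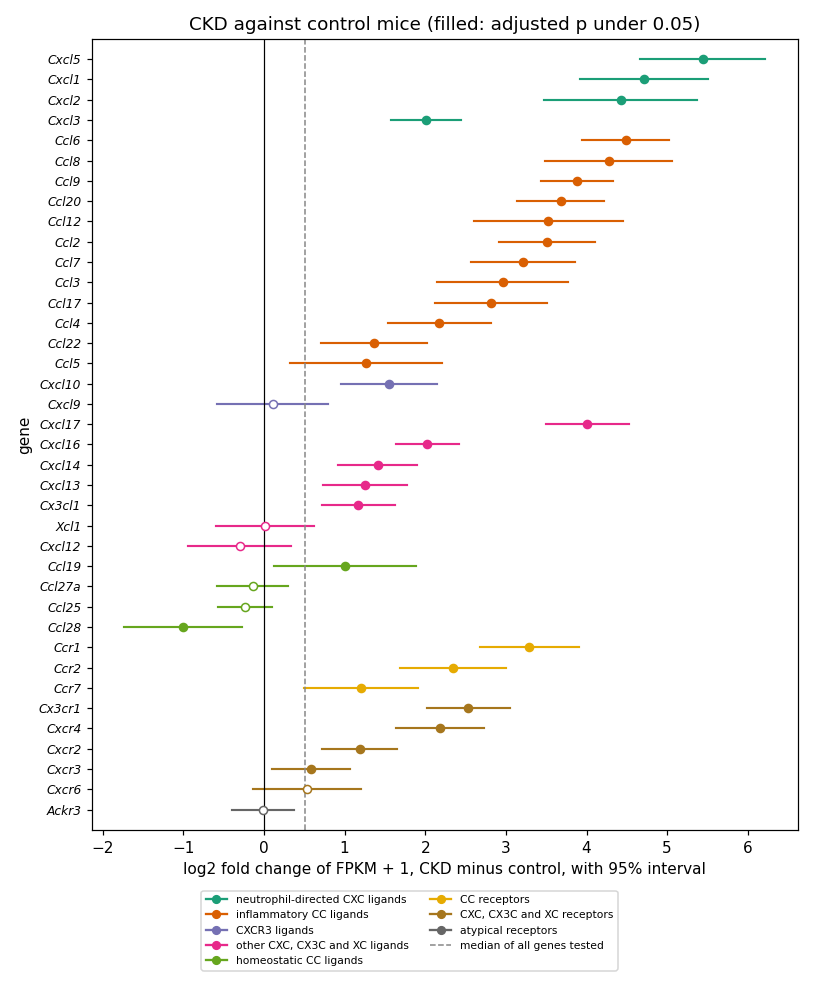
The plot shows the CKD minus control difference in log2(FPKM + 1) (x axis) for 38 of the 39 members tested (y axis), with 95% intervals, coloured by role, with filled dots for an adjusted p under 0.05 and a dashed line at the median of all genes (0.50). The 4 neutrophil-directed CXC ligands and most inflammatory CC ligands lie at 2 or above, and Ccl28 alone is a filled dot below 0.

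The CXC ligands that attract neutrophils through Cxcr2 had the largest median log2 fold change of the roles (4.57, and 4.29 and 4.06 after the rescalings). All 4 of those tested were called higher, beside 54.6% of all genes. However, all 4 passed the filter only through the adenine-fed mice, which fixed the direction of their calls. The summed level of these ligands was 0.427 to 0.940 FPKM in control mice and 56.6 to 230.9 FPKM in CKD mice. Cxcl5 (ENSMUSG00000029371) was at 0, 0, 0.0360 and 0.174 FPKM in control mice 012811, 012822, 042301 and 042310. In CKD mice 021320, 022301, 110310 and 120102 it was at 31.6, 96.7, 26.0 and 49.5 FPKM, and in CKD+Fe mice 042702, 062910, 111710 and 122320 at 39.0, 17.2, 34.7 and 50.1 FPKM. Values of 4 mice are given in this order throughout, and "with iron" stands for the CKD+Fe mice. The log2 fold change from control to CKD, 5.44 (SE, standard error, 0.36, adjusted p = 9.50e-08), was the largest of the 39, and no adenine-fed mouse came near the control range.

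Cxcl1 (ENSMUSG00000029380) had 0.338, 0.827, 0.658 and 0.278 FPKM in control mice, 23.4, 73.7, 19.2 and 65.3 FPKM in CKD mice and 32.6, 47.8, 25.2 and 38.4 FPKM with iron. Its log2 fold change came to 4.71 (SE 0.37, adjusted p = 3.81e-07). For Cxcl2 (ENSMUSG00000058427) the values were 0.0407, 0.0909, 0.0523 and 0.185 FPKM in control mice, 11.4, 55.3, 9.12 and 41.3 FPKM in CKD mice and 15.6, 19.7, 13.7 and 23.4 FPKM with iron. CKD mice 022301 and 120102 were high for both genes and CKD mice 021320 and 110310 low, with a gap between the pairs. The log2 fold change of Cxcl2 was 4.42 (SE 0.44, adjusted p = 2.56e-06). Cxcl3, listed at 0 in 3 of the 4 control mice, reached 2.11, 5.10, 2.17 and 3.52 FPKM in CKD mice (log2 fold change 2.005, adjusted p = 2.96e-06). Cxcl15 was at most 0.180 FPKM in any mouse and was not tested.

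**Figure D2:**
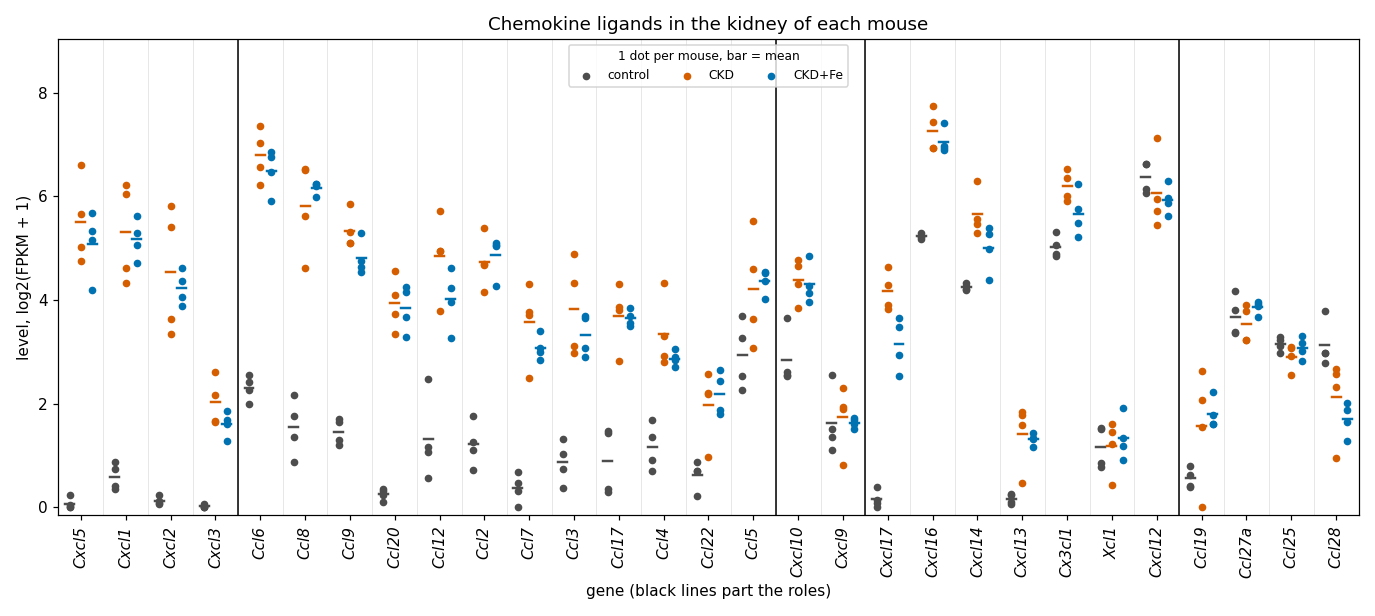
The plot shows the level as log2(FPKM + 1) (y axis) of the 29 ligands tested (x axis) in each mouse, with 1 dot per mouse, a bar at the group mean and black lines between the roles. Cxcl5, Cxcl1, Cxcl2 and Cxcl3 are near 0 in control mice and apart from them in all CKD and CKD+Fe mice, whereas Cxcl12, Ccl27a, Ccl25 and Xcl1 overlap between groups.

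These 4 genes lie within 1 cluster on chromosome 5, and the promoters of 3 of them are shown because they hold the letters of a kappaB motif close to the start. The promoter of Cxcl5 was not available and was not searched. The motif is the DNA pattern bound by NF-kappaB, a transcription factor that acts on many inflammatory genes, and was searched as GGGNNNTTCC on both strands. The promoters are those of RefSeq in GRCm38.p6, 5′ to 3′ on the strand of the gene, up to the base before the transcript start, and capitals mark the letters of the motif.
Cxcl1, chr5:90890995-90891244, plus strand: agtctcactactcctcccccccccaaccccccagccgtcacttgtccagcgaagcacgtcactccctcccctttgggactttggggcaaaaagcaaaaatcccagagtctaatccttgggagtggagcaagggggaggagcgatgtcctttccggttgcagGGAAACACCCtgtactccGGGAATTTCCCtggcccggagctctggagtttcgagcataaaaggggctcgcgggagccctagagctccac
Cxcl2, chr5:90903649-90903898, plus strand: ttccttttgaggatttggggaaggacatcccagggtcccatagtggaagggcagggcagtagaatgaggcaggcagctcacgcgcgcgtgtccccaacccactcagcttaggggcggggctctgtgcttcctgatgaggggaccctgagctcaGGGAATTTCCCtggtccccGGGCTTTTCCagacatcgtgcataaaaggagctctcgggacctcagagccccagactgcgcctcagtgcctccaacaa
Cxcl3, chr5:90785851-90786100, plus strand: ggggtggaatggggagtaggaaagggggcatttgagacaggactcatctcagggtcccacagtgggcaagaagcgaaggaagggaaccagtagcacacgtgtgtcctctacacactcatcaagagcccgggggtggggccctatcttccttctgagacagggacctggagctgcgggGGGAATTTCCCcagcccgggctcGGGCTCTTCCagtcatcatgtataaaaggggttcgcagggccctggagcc
Each holds an 11-base stretch that matches on both strands at adjacent positions, plus a match on 1 strand. Matches begin 89, 71 and 70 bases before the start in Cxcl1, 97, 96 and 78 in Cxcl2, and 73, 72 and 50 in Cxcl3. The order differs, with the stretch nearer to the start in Cxcl1 and farther from it in Cxcl2 and Cxcl3.

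Of the 39 members tested, 30 matched an entry in the promoter table, with 33 promoters, and 6 promoters (18.2%) held the motif, against 4.65% of all 32851 promoters of this length. Tested members without an entry, among them Cxcl5, Cxcl16, Cxcl17, Ccl2, Ccl4, Ccl5, Ccl7 and Ccr7, were not searched. Besides Cxcl1, Cxcl2 and Cxcl3, the promoters with the motif were those of Ccl20, Cxcl10 and Ccl9. Over all members, tested or not, 9 of 52 promoters (17.3%) held the motif, with matches in Ccl1, Ccr3 and Ccr6 among those not tested. The promoters of Ccl20 and Cxcl10 are shown for comparison, since these genes rose in CKD but bind other receptors. Ccl20 is a CC ligand, while Cxcl10 is a CXC ligand of the same cluster on chromosome 5.
Ccl20, chr1:83116516-83116765, plus strand: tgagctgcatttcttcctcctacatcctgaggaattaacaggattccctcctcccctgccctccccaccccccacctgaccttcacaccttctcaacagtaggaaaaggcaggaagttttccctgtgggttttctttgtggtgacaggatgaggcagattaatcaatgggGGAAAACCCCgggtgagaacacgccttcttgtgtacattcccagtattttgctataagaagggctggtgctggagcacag
Cxcl10, chr5:92348890-92349139, minus strand: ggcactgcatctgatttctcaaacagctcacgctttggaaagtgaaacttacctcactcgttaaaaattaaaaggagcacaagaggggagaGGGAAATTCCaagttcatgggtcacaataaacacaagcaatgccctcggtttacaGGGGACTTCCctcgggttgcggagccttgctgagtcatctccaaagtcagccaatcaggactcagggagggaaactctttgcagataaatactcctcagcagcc
In Cxcl10 the matches begin 159 and 104 bases before the start, and the core of an interferon-stimulated response element, searched as GAAANNGAAA, begins 213 bases before it. In Ccl20 the only match begins 80 bases before the start. Such matches are descriptions of letters and not measured binding. The core of the interferon element was in the promoters of 3 tested members, Cxcl10, Ccl19 and Cxcl14, and in 2.98% of all promoters. An AP-1 motif (TGANTCA) was in 9.09% of the promoters of tested members and 6.75% of all, and TATAAA in 30.3% and 12.4%.

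Cxcr2, the neutrophil receptor for these ligands, was at 0.0588, 0, 0.0528 and 0.0561 FPKM in control mice, 0.849, 2.39, 1.01 and 1.51 FPKM in CKD mice and 2.01, 0.540, 0.823 and 1.04 FPKM with iron (log2 fold change in CKD 1.19, SE 0.22, adjusted p = 3.11e-04). The receptor Cxcr1 did not reach 1 FPKM in 4 mice and peaked at 1.65 FPKM in a CKD mouse. A list of 10 neutrophil markers, which includes Cxcr2, summed to 1.82 to 6.68 FPKM in control mice, 61.1 to 231.8 FPKM in CKD mice and 52.2 to 147.0 FPKM in CKD+Fe mice. It was carried by S100a8 and S100a9, while the granule genes Camp, Ngp, Elane and Mpo were at 0 in every control mouse and reached 0.310 FPKM at most in the other mice. All 5 markers tested were called higher in CKD, beside 54.6% of all genes, with a median log2 fold change of 2.80. Of these, Csf3r (means 0.505 and 9.68 FPKM), Retnlg (0.160 and 2.39 FPKM) and Cxcr2 were under 1 FPKM in every control mouse, so the filter set their direction. Within the CKD group the sum of the list was highest in mouse 022301 and next in 120102, which were also the highest for Cxcl1 and Cxcl2. Among the CKD+Fe mice it was highest in 042702 (147.0 FPKM), which was not the highest of them for either ligand. The part of neutrophil number in the level of these genes was not tested.

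All 12 inflammatory CC ligands tested were called higher in CKD mice, beside 54.6% of all genes, with a median log2 fold change of 3.36. After rescaling, 11 were called by median-of-ratios (28.8% of all genes) and 10 by quantile normalization (23.3%), and none changed sign. Of the 12, Ccl7, Ccl20 and Ccl22 passed the filter only through the adenine-fed mice. The summed level of the inflammatory CC ligands was 13.6 to 29.0 FPKM in control mice, 273.9 to 538 FPKM in CKD mice and 265 to 344 FPKM in CKD+Fe mice. Of the 12, 9 are part of the CC ligand cluster on chromosome 11.

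Ccl6 (ENSMUSG00000018927), a ligand of Ccr1 made by myeloid cells, was at 3.77, 4.35, 2.97 and 4.85 FPKM in control mice, 73.7, 162, 93.1 and 129 FPKM in CKD mice and 114, 58.7, 87.2 and 107 FPKM with iron. It had the highest level of the CC ligands in CKD and a log2 fold change of 4.48 (SE 0.25, adjusted p = 3.53e-08). Ccl9 (ENSMUSG00000019122), its neighbour and another ligand of Ccr1, was at 1.46, 1.31, 2.12 and 2.25 FPKM in control mice, 33.3, 56.7, 33.3 and 38.5 FPKM in CKD mice and 38.3, 22.3, 23.8 and 25.8 FPKM with iron. The log2 fold change of Ccl9 was 3.88 (SE 0.21, adjusted p = 2.94e-08), with the smallest adjusted p of the 39.

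Ccl8 (ENSMUSG00000009185), a ligand of Ccr8 in the mouse, had 0.840, 3.49, 2.39 and 1.55 FPKM in control mice, 47.9, 90.7, 90.2 and 23.5 FPKM in CKD mice and 62.2, 74.6, 72.7 and 74.9 FPKM with iron. Its log2 fold change came to 4.28 (SE 0.37, adjusted p = 7.83e-07), and CKD mouse 120102 was the lowest of the adenine-fed mice. The receptor Ccr8 was at most 0.562 FPKM in any mouse and was not tested.

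Ccl2 (ENSMUSG00000035385), the main monocyte attractant that binds Ccr2, was at 0.640, 1.41, 1.15 and 2.39 FPKM in control mice, 24.9, 40.9, 24.4 and 16.8 FPKM in CKD mice and 33.3, 18.3, 32.6 and 31.8 FPKM with iron. The log2 fold change came to 3.51 (SE 0.28, adjusted p = 3.95e-07). The other ligands of Ccr2 rose too, Ccl7 from a mean of 0.308 to 12.1 FPKM (log2 fold change 3.21, adjusted p = 1.57e-06) and Ccl12 from 1.84 to 30.9 FPKM (log2 fold change 3.53, adjusted p = 1.32e-05). Ccr2 itself was at 2.20, 2.07, 3.92 and 5.10 FPKM in control mice, 27.5, 35.2, 11.8 and 13.9 FPKM in CKD mice and 14.6, 16.7, 18.1 and 17.3 FPKM with iron. Every adenine-fed mouse was above every control mouse for this receptor (log2 fold change 2.34, SE 0.31, adjusted p = 2.28e-05), with CKD mice 021320 and 022301 higher than the other CKD mice.

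Ccl3 and Ccl4, attractants of macrophages and T cells, rose from means of 0.878 and 1.32 FPKM to 15.6 and 10.1 FPKM, with log2 fold changes of 2.96 and 2.17 (adjusted p = 1.80e-05 and 3.15e-05). Ccr1, a receptor of Ccl3, Ccl6 and Ccl9, was at most 0.169 FPKM in control mice and at 8.04, 18.0, 4.76 and 12.9 FPKM in CKD mice (log2 fold change 3.29, adjusted p = 8.18e-07).

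Ccl5, a product of T cells among others, had 3.82, 4.82, 8.63 and 11.99 FPKM in control mice, 11.4, 23.3, 45.1 and 7.46 FPKM in CKD mice and 22.2, 19.7, 15.3 and 21.8 FPKM with iron. The CKD and control ranges overlapped, and CKD mouse 110310 was far above the other 3. The call in CKD (log2 fold change 1.27, SE 0.44, adjusted p = 0.0201) was lost after both rescalings (0.75 with adjusted p = 0.163 by median-of-ratios, 0.63 with adjusted p = 0.268 by quantile normalization) and without control mouse 012811 or 012822 or CKD mouse 022301 or 110310 (adjusted p = 0.0564 to 0.0653).

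Ccl20 (ENSMUSG00000026166), which binds Ccr6 on lymphocytes and dendritic cells, was at 0.182, 0.251, 0.269 and 0.0734 FPKM in control mice, 9.19, 22.5, 12.3 and 16.1 FPKM in CKD mice and 16.8, 8.74, 11.7 and 17.9 FPKM with iron. The adenine-fed mice were all far above the control mice (log2 fold change 3.68, SE 0.25, adjusted p = 1.23e-07). Ccr6 was at most 0.898 FPKM in any mouse. Ccl17 and Ccl22, ligands of Ccr4, rose to means of 12.8 and 3.25 FPKM (log2 fold change 2.81 and 1.36, adjusted p = 7.50e-06 and 0.00148), and the call of Ccl22 was lost under quantile normalization (0.58, adjusted p = 0.142). Ccr4 was at most 0.349 FPKM in any mouse.

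Macrophage markers were also higher in adenine-fed than in control mice. The 11 of 12 macrophage markers found in the table summed to 138 to 268 FPKM in control mice, 1843 to 3837 FPKM in CKD mice and 1718 to 3831 FPKM in CKD+Fe mice. In CKD 10 of the 11 were called higher, beside 54.6% of all genes. None of these markers was at 0 in any mouse, and Lyz2 took the largest share. In CKD mice 022301, 110310, 120102 and 021320 the marker sum was 3837, 2941, 1867 and 1843 FPKM. The summed inflammatory CC ligands had the same order, at 538, 375, 287 and 274 FPKM in these mice. The receptor Ccr2 had another order, with 27.5 FPKM in mouse 021320 and its lowest level of the group in mouse 110310. Among the CKD+Fe mice both sums were highest in 042702 and lowest in 062910, while mice 111710 and 122320 changed places. With iron the mean of the marker sum was 2668 FPKM against 2622 FPKM in CKD mice, and that of the inflammatory CC ligands 310 FPKM against 369 FPKM. The part of macrophage number in the chemokine levels was not tested.

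Among the ligands of Cxcr3, Cxcl10, which is induced by interferons, was at 5.14, 4.87, 4.76 and 11.6 FPKM in control mice, 26.2, 24.1, 18.7 and 13.3 FPKM in CKD mice and 18.2, 27.7, 16.6 and 14.6 FPKM with iron. It rose in CKD (log2 fold change 1.55, SE 0.28, adjusted p = 2.85e-04), although control mouse 042310 was close to the lowest CKD mouse. Cxcl9, the ligand made mainly after interferon gamma, was not called, at 2.35 ± 1.71 FPKM in control and 2.56 ± 1.31 FPKM in CKD mice, and its log2 fold change of 0.11 turned to -0.28 and -0.67 after median-of-ratios rescaling and quantile normalization. Cxcr3 had means of 1.06 ± 0.220 and 2.22 ± 1.12 FPKM, with overlapping ranges. Its call (log2 fold change 0.58, adjusted p = 0.0353) was lost by median-of-ratios rescaling (0.25, adjusted p = 0.350), turned to -0.21 under quantile normalization (adjusted p = 0.480), and was lost without any 1 of 6 mice (control 012811, 012822 or 042301, CKD 021320, 022301 or 110310, adjusted p = 0.0537 to 0.105). The T cell markers, 8 of 9 found, summed to 3.70 to 10.2 FPKM in control mice and 7.56 to 32.6 FPKM in CKD mice. Of 7 tested, 6 were called higher, beside 54.6% of all genes. After median-of-ratios rescaling 3 were (28.8% of all genes), and none after quantile normalization (23.3%). The median log2 fold change of the 7 was 0.87, and that of all genes 0.50.

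Of the 7 other ligands tested, 5 were called higher in CKD mice under each of the 3 scalings. The shares of all genes called higher were 54.6%, 28.8% after median-of-ratios rescaling and 23.3% after quantile normalization. Of the 5, Cxcl13 and Cxcl17 passed the filter only through the adenine-fed mice. Cxcl17 (ENSMUSG00000060188), a chemokine of mucosal epithelia, was at 0.107, 0.303, 0.0643 and 0 FPKM in control mice, 13.2, 18.6, 23.7 and 14.0 FPKM in CKD mice and 4.79, 11.6, 6.67 and 10.1 FPKM with iron. Its log2 fold change in CKD was 4.01 (SE 0.24, adjusted p = 4.78e-08). Of the urothelium markers, which mark another mucosal epithelium of the kidney sample, 1 of 6 was called higher in CKD mice, beside 54.6% of all genes. This was Krt20, with means of 0.164 FPKM in control and 31.6 FPKM in CKD mice. The other 5 were not called, with means of 1.33 to 3.79 FPKM in control and 0.860 to 2.99 FPKM in CKD mice, and over the 6 the median log2 fold change was -0.14, with 2 positive. The sum of the 6, which Krt20 led in CKD mice, was 1.32 to 23.6 FPKM in control, 19.9 to 53.5 FPKM in CKD and 21.2 to 34.6 FPKM in CKD+Fe mice. The part of urothelium in the Cxcl17 level was not tested.

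Cxcl16 (ENSMUSG00000018920) had 36.2, 35.3, 36.7 and 38.1 FPKM in control mice, 120.3, 214, 171 and 120.3 FPKM in CKD mice and 169.8, 125, 122 and 118 FPKM with iron. The control mice lay within a narrow band, with a log2 fold change of 2.02 (SE 0.18, adjusted p = 1.19e-06). Its receptor Cxcr6, found on T and NKT cells, was not called, at 1.08 ± 0.570 and 2.15 ± 1.18 FPKM, with a log2 fold change of 0.53 that turned to -0.24 under quantile normalization. CKD mouse 120102 was the lowest of all 12 mice for Cxcr6, and without it the gene was called higher (0.86, adjusted p = 0.00906).

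Cx3cl1, tethered to endothelium and tubule cells, was at 38.9, 32.4, 27.8 and 28.7 FPKM in control mice, 80.7, 59.0, 91.5 and 63.6 FPKM in CKD mice and 74.2, 52.8, 43.5 and 36.0 FPKM with iron. It rose in CKD (log2 fold change 1.17, SE 0.21, adjusted p = 2.72e-04). Cx3cr1, its receptor on monocytes and resident macrophages, was at 2.18, 1.92, 3.50 and 3.60 FPKM in control mice, 21.6, 25.9, 20.7 and 15.4 FPKM in CKD mice and 24.5, 14.5, 17.3 and 10.6 FPKM with iron. CKD and control mice did not overlap for the receptor, with a log2 fold change of 2.53 (SE 0.24, adjusted p = 1.60e-06).

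Cxcl14 had 18.9, 17.4, 18.2 and 17.6 FPKM in control mice, 43.0, 46.5, 77.8 and 38.3 FPKM in CKD mice and 37.7, 40.7, 19.8 and 30.7 FPKM with iron (log2 fold change in CKD 1.41, SE 0.23, adjusted p = 1.35e-04). The control values lay close together, and CKD mouse 110310 was well above the others. Cxcl13, the ligand of Cxcr5 that draws B cells, rose from 0.125 to 1.85 FPKM (log2 fold change 1.25, adjusted p = 4.96e-04), while Cxcr5 was at most 0.215 FPKM.

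Cxcl12, the leading ligand of control kidneys, did not pass the test, at 98.0, 69.7, 97.7 and 65.5 FPKM in control mice, 139, 61.0, 42.7 and 51.6 FPKM in CKD mice and 61.7, 47.9, 57.7 and 77.0 FPKM with iron (log2 fold change -0.30, 95% interval -0.94 to 0.34). CKD mouse 021320 was the highest of all mice and the other 3 CKD mice were below every control mouse. Without that mouse Cxcl12 was called lower (-0.66, adjusted p = 0.0122), as it was after median-of-ratios rescaling of all mice (-0.87, adjusted p = 0.0194). After quantile normalization Cxcl12 was not called, and in the alternatives that kept all mice or left out 3 its log2 fold change reached -0.0081. Cxcr4, its signalling receptor, rose from 1.91, 3.51, 2.49 and 4.71 FPKM in control mice to 11.9, 24.5, 18.5 and 16.4 FPKM in CKD mice and was at 29.1, 15.4, 20.6 and 26.3 FPKM with iron (log2 fold change in CKD 2.18, SE 0.26, adjusted p = 9.16e-06). Ackr3 had 21.5 ± 1.998 FPKM in CKD mice against 22.4 ± 6.99 FPKM in control mice (log2 fold change -0.02, not called). It was called lower after median-of-ratios rescaling (-0.57, adjusted p = 0.0180) but not after quantile normalization (-0.37).

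**Figure D3:**
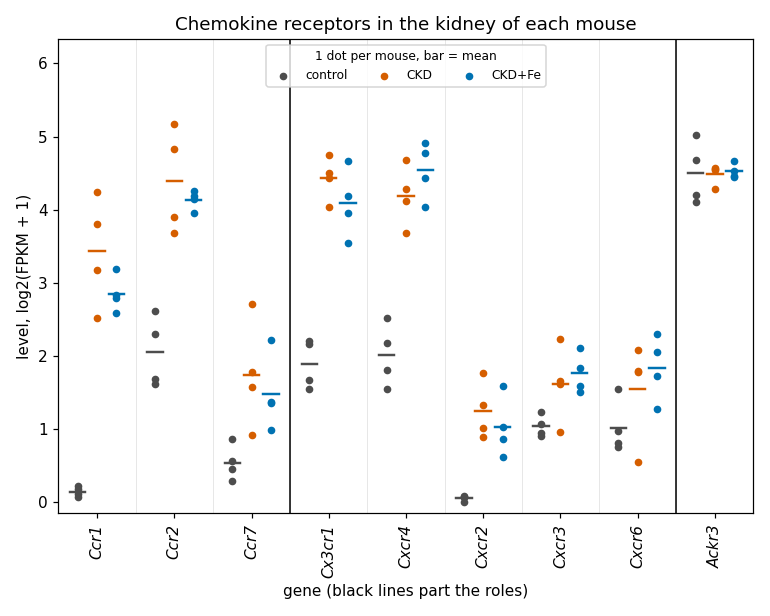
The plot shows the level as log2(FPKM + 1) (y axis) of 9 receptors tested (x axis) in each mouse, with 1 dot per mouse, a bar at the group mean and black lines between the roles. Ccr1, Ccr2, Ccr7, Cx3cr1, Cxcr4 and Cxcr2 have all CKD mice above all control mice, and Cxcr3, Cxcr6 and Ackr3 do not.

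Of the 4 homeostatic CC ligands tested, 1 was higher in CKD mice and 1 was lower, beside 54.6% and 13.3% of all genes. Ccl28 (ENSMUSG00000074715), an epithelial ligand of Ccr10 and Ccr3, was the only member called lower in CKD mice. It was at 5.87, 6.86, 6.89 and 12.8 FPKM in control mice, 3.99, 5.36, 0.923 and 4.92 FPKM in CKD mice and 1.43, 2.65, 2.14 and 3.05 FPKM with iron. The highest CKD mouse was below the lowest control mouse, and CKD mouse 110310 was the lowest of all. The log2 fold change came to -1.01 (SE 0.34, adjusted p = 0.0176), and without control mouse 042310, the highest, the call was lost (-0.79, adjusted p = 0.0593).

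Ccl27a, a skin and epithelial ligand of Ccr10, and Ccl25, the thymus and gut ligand of Ccr9, were not called, with log2 fold changes of -0.14 and -0.24. Both were called lower after median-of-ratios rescaling (-0.67 and -0.75, adjusted p = 0.0117 and 0.000944) and after quantile normalization (-0.70 and -0.91, adjusted p = 0.0115 and 0.000281). Ccl19, which guides dendritic cells and T cells by Ccr7, was called higher with overlapping groups, since CKD mouse 021320 was listed at 0 and CKD mouse 110310 had 5.17 FPKM (log2 fold change 1.005, adjusted p = 0.0414). The call was lost by both rescalings (0.77 with adjusted p = 0.104, and 0.31 with adjusted p = 0.530). Leaving out control mouse 012811, 012822 or 042310, CKD mouse 022301, 110310 or 120102 or CKD+Fe mouse 111710 also ended it (adjusted p = 0.0509 to 0.136), as did a pseudocount of 0.1 (adjusted p = 0.215). Ccr7 rose from a mean of 0.470 to 2.71 FPKM (log2 fold change 1.21, adjusted p = 0.00534), a call that quantile normalization did not keep (0.44, adjusted p = 0.316). Xcl1, the ligand of Xcr1 on cross-presenting dendritic cells, was at means of 1.31 and 1.37 FPKM, and its log2 fold change of 0.01 turned to -0.74 with a call under quantile normalization (adjusted p = 0.0297).

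Counting could mix some members with other genes. Ccl19, Ccl21 and Ccl27 have near-identical copies, so their values are uncertain. Exons of Cxcl16, Cxcl10, Ccl25, Ccl27a, Cx3cr1 and Xcl1 overlap those of a gene on the other strand, and whether the counting used strand is not given in the sources used here.

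Some members that rose were neighbours on a chromosome, described here with positions in GRCm38 and neighbours at most 2000000 bases apart. The counts stand beside the 54.6% of all genes called higher in CKD mice. Of the genes counted, Cxcl1, Cxcl2, Cxcl3, Cxcl5, Ccl7, Ccl19 and Ccl22 passed the filter only through the adenine-fed mice. The calls of Ccl5 and Ccl19 were lost after both rescalings, and that of Ccl22 after quantile normalization. The cluster at chr11:82035571-83664683 holds 11 CC ligands, of which 9 were tested and all 9 were higher, with log2 fold changes from 1.27 to 4.48. The cluster at chr5:90759360-92348889 holds 7 CXC ligands, of which 6 were tested and 5 were higher, with a range from 0.11 (Cxcl9) to 5.44 (Cxcl5). At chr8:94745590-94812036 all 3 genes, Ccl22, Cx3cl1 and Ccl17, were higher. In the cluster at chr4:41769467-42773993, 2 of 5 genes were tested and only Ccl19 was called.

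Within the CKD group the mice did not rank alike for all members. CKD mouse 022301 was the highest of the 4 for 25 of the 39 members tested, 110310 for 11, 021320 for 3 and 120102 for none. Mouse 120102 was the lowest for 17, among them Ccl2, Ccl8, Ccl5 and Cxcr3, although it was the second highest for Cxcl1, Cxcl2, Cxcl3 and Cxcl5. The 11 members highest in mouse 110310 were Ccl5, Ccl19, Ccl22, Ccl27a, Ccr7, Cxcr3, Xcl1, Cxcl14, Cxcl17, Cx3cl1 and Ackr3. Of these, Ccl19 and Cxcl17 were lowest in mouse 021320, Cx3cl1 and Ackr3 in 022301, and the rest in 120102. Mouse 110310 was the lowest for 9 members, Cxcl1, Cxcl2, Cxcl5, Cxcl12, Cxcl13, Ccl25, Ccl28, Ccr1 and Ccr2. The T cell markers were highest in mouse 110310, at 32.6 FPKM, and lowest in mouse 120102, at 7.56 FPKM. The neutrophil markers were at 62.7 and 145 FPKM in these mice. With 4 mice these orders are a description without a test.

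**Figure D4:**
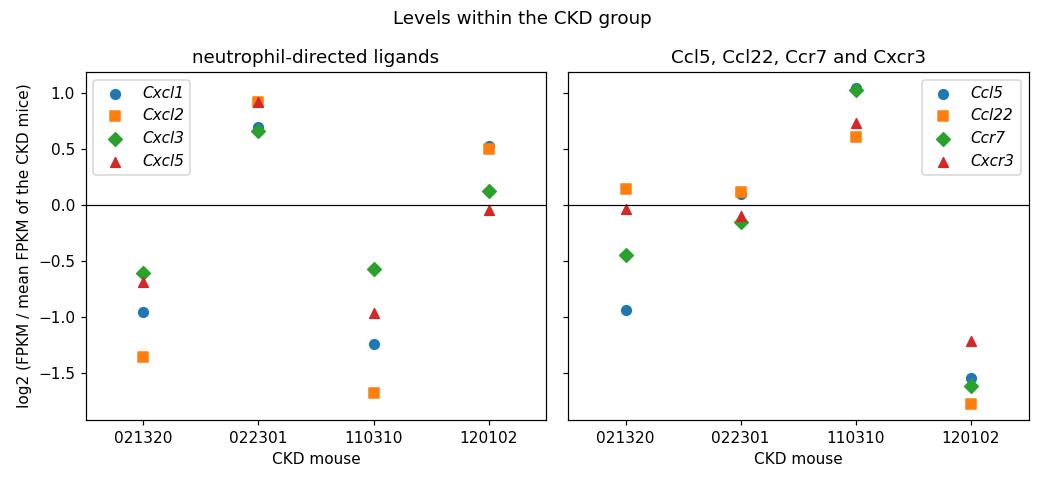
The plot shows log2 of the FPKM over the mean FPKM of the CKD group (y axis) in each CKD mouse (x axis), for the neutrophil-directed ligands (left) and for Ccl5, Ccl22, Ccr7 and Cxcr3 (right), which were chosen after their values were seen. Mice 022301 and 120102 are above mice 021320 and 110310 in the left panel, and mouse 110310 is highest and mouse 120102 lowest in the right panel.

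Other genes of the chemokine system were taken from lists of signalling, adhesion and related genes. Their counts stand beside the share of all genes called in CKD, which was 54.6% higher and 13.3% lower in the fit reported, 28.8% and 29.3% after median-of-ratios rescaling and 23.3% and 25.6% after quantile normalization. Of 35 tested genes for signalling below chemokine receptors, 32 were higher in CKD and none lower (27 and 0 after median-of-ratios rescaling, 31 and 0 after quantile normalization). The largest rises were those of Rgs16, a brake on G protein signals, from 0.192 to 9.52 FPKM (log2 fold change 3.10), Vav1, an exchange factor of leukocytes (2.43), and Fgr, a Src family kinase of myeloid cells (2.38). Of 18 adhesion genes 15 were higher and none lower, whereas 13 were higher and 3 lower after median-of-ratios rescaling and 12 and 3 after quantile normalization. Vcam1, an endothelial and tubular adhesion molecule for leukocyte integrins, rose from 3.06 to 102 FPKM (log2 fold change 4.60), ahead of Cd44, the hyaluronan receptor (3.71), and Itgam, an integrin of myeloid cells (3.54).

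Of 13 NF-kappaB subunits and feedback targets, 12 were higher in CKD and none lower, beside 54.6% and 13.3% of all genes (11 and 1 after median-of-ratios rescaling, 12 and 0 after quantile normalization). Birc3 rose from 3.62 to 37.5 FPKM (log2 fold change 2.98) and Tnfaip3, an inhibitor of the pathway, from 1.09 to 11.7 FPKM (2.56), with Ikbke, a kinase, at 2.45. Of 16 genes for chemokine processing, presentation and related attractants, 15 were higher and 1 lower, beside the same shares (11 and 1 after median-of-ratios rescaling, 13 and 0 after quantile normalization). Mmp2, a protease that cuts chemokines, had a log2 fold change of 3.85, and the complement receptors C3ar1 and C5ar1 had 3.15 and 3.12. Mif, a cytokine that also binds Cxcr2 and Cxcr4, was lower, at 337 FPKM in control and 234 FPKM in CKD mice (-0.55, adjusted p = 0.0337). Chemokine genes named otherwise rose as well, with Pf4 (Cxcl4, a platelet and macrophage product) from 2.75 to 27.7 FPKM (log2 fold change 2.87), Ppbp (the precursor of Cxcl7) at 1.49 and Ccrl2, a chemerin-binding receptor, at 0.87.

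The second question was whether weekly iron dextran changed chemokine expression in CKD. No member was called in CKD+Fe against CKD mice, 0 of 39 higher and 0 lower, where 0.00761% of all genes (1 gene) were called higher and 0% lower. The same limma fit gave 5 of 39 members and 790 of 13148 genes with an unadjusted p under 0.05. Without the 3 mice that stood apart the count of calls was again 0 in both directions. The log2 fold changes of the 39 ranged from -1.01 to 0.35 with a median of -0.20, 27 negative and 12 positive, and the median of all genes was 0. The excess of negative values depended on 1 CKD mouse, since without mouse 022301 the median was -0.02 with 19 of 39 positive.

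Of the members with an unadjusted p under 0.05, 4 are given with their values, and each was lower with iron. Cxcl17, with the per-mouse values above, was the furthest, at a mean of 8.30 ± 3.12 FPKM against 17.4 ± 4.84 FPKM in CKD mice (log2 fold change -1.01, 95% interval -1.53 to -0.50, unadjusted p = 9.19e-04, adjusted p = 0.336). All CKD+Fe mice were below all CKD mice for 2 of the 39, Cxcl17 among them, and for none of the 39 were they all above, against 1.09% and 1.35% of all genes (exact permutation p = 0.0286 for Cxcl17, the smallest that 4 mice against 4 allow).

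For Cxcl14 the means were 32.2 ± 9.29 FPKM with iron and 51.4 ± 17.9 FPKM without (log2 fold change -0.65, adjusted p = 0.648). Ccl9 stood at 27.5 ± 7.32 and 40.5 ± 11.1 FPKM (-0.54, adjusted p = 0.734), and Cx3cl1 at 51.6 ± 16.6 and 73.7 ± 15.1 FPKM (-0.53, adjusted p = 0.754). In each of these 3 the ranges of the groups overlapped. Of the urothelium markers, 0 of 6 were called with iron, with log2 fold changes from -1.05 (Krt20, the only negative one) to 0.79 and a median of 0.54. The part of urothelium was not tested.

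The members that changed most with CKD gave wide intervals with iron. The log2 fold change of Cxcl1 in CKD+Fe against CKD mice was -0.13 (95% interval -0.93 to 0.66), that of Cxcl2 -0.32 (-1.27 to 0.63) and that of Cxcl5 -0.43 (-1.20 to 0.35), with the intervals of Cxcl2 and Cxcl5 reaching below -1. For Ccl2 it was 0.14 (-0.45 to 0.74), for Ccl6 -0.30 (-0.83 to 0.24), for Ccl8 0.35 (-0.44 to 1.14), for Ccl20 -0.10 (-0.64 to 0.45) and for Ccl5 0.15 (-0.79 to 1.09). Among receptors, Ccr2 had -0.26 (-0.92 to 0.40), Cx3cr1 -0.34 (-0.85 to 0.17) and Cxcr4 0.35 (-0.20 to 0.90). Ccl28 had -0.42 (-1.15 to 0.31), Cxcl10 -0.09 (-0.69 to 0.51), Cxcl12 -0.13 (-0.76 to 0.51) and Cxcl16 -0.20 (-0.59 to 0.19). Each of these intervals includes 0.

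**Figure D5:**
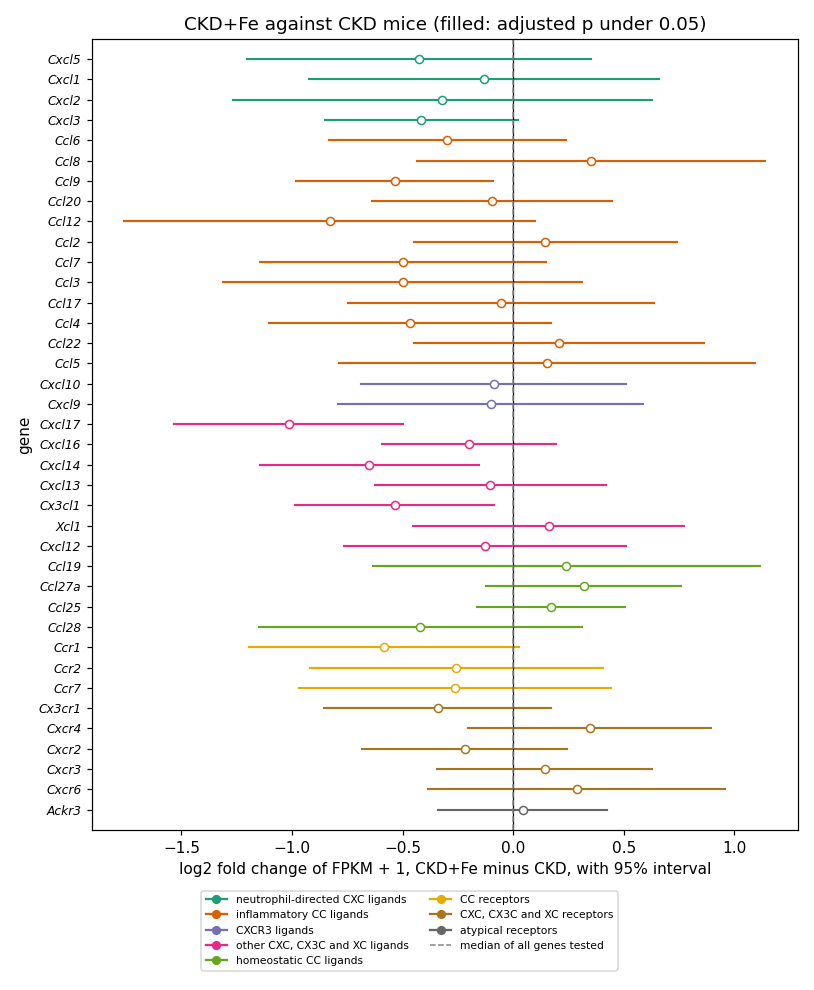
The plot shows the CKD+Fe minus CKD difference in log2(FPKM + 1) (x axis) for 38 of the 39 members tested (y axis, same order as for CKD), with 95% intervals, and a dashed line at the median of all genes. All dots are open, since none of their adjusted p was under 0.05, and only the intervals of Cxcl17, Cxcl14, Ccl9 and Cx3cl1 leave out 0.

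The third comparison, CKD+Fe against control mice, uses the same control mice as the first and the same iron-treated mice as the second, so it is not independent of either. It called 32 of the 39 members higher and 1 lower, against 54.4% and 11% of all genes tested, with a median log2 fold change of 1.71 for the members and 0.50 for all genes. After median-of-ratios rescaling 26 were higher and 4 lower, beside 27.7% and 27.5% of all genes. Quantile normalization gave 22 higher and 3 lower, beside 19.8% and 22.6%. All CKD+Fe mice were above all control mice for 30 members and below for 1, against 50.4% and 9.85% of all genes. Without the 3 mice that stood apart, 30 were higher and 1 lower, with a median log2 fold change of 1.70 for the members and 0.48 for all genes. The leading members were again Cxcl5 (log2 fold change 5.02 beside 5.44 in CKD), Ccl8 (4.63 beside 4.28), Cxcl1 (4.58 beside 4.71), Ccl6 (4.19 beside 4.48) and Cxcl2 (4.10 beside 4.42). Cxcl17 stood at 3.00 beside 4.01, and Ccl28 at -1.43 beside -1.01. Ccl5 and Cxcr3, whose CKD and control ranges overlapped, had no overlap between CKD+Fe and control mice (log2 fold change of Ccl5 1.42, adjusted p = 0.0116). The call of Ccl5 was lost after both rescalings (0.91 with adjusted p = 0.0989 by median-of-ratios, 0.84 with adjusted p = 0.152 by quantile normalization), and the log2 fold change of Cxcr3, 0.72, turned to -0.0947 under quantile normalization (adjusted p = 0.773). Cx3cl1 (0.64, adjusted p = 0.0163) and Cxcl14 (0.76, adjusted p = 0.0106) also lost their calls after both rescalings. By median-of-ratios they were at 0.08 and 0.21 (adjusted p = 0.769 and 0.477), and by quantile normalization at 0.45 and 0.42 (adjusted p = 0.0847 and 0.156). Without CKD+Fe mouse 042702, Cx3cl1 was not called either (0.45, adjusted p = 0.0530). Other calls were also lost in at least 1 alternative that kept all mice or left out 3. Among them were Ccl19, Cxcr2, Cxcl13 and Ccl22, with a highest limma adjusted p of 0.350, 0.160, 0.0764 and 0.0577.

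The members not tested were 20 rows on chromosomes besides the 7 scaffold rows. Among their ligands, Ccl24, an eosinophil attractant that binds Ccr3, reached 2.15 FPKM in a CKD mouse and at most 0.223 FPKM in control mice, and Ccl11 peaked at 1.11 FPKM in a CKD+Fe mouse. Ccl1 was at most 0.841 FPKM, Ccl21a and Ccl27b at most 0.188 FPKM, and Ccl26 and Ccl21b were listed at 0 in all 12 mice. Among their receptors, Ackr1 (the Duffy antigen, which carries chemokines across venules) peaked at 1.80 FPKM and Xcr1 at 1.38 FPKM, both in CKD mice. Ackr2, Ackr4, Ccr3, Ccr9 and Ccr10 were at most 0.677 FPKM. Without reads or depths, a floor for these low values cannot be given.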

How the data were processed

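The authors sequenced stranded mRNA libraries of whole kidney with single-end reads, and the submitters' processing notes name bcl2fastq 2.19, STAR 2.5.2, Cufflinks 2.1.1 and the mouse build GRCm38. The annotation is not given in the sources used here. The authors deposited FPKM for 22053 gene rows and 12 mice, each with an estimate status, and 30 values with a failed status, none of a member, were set missing. Depth in reads is unknown, so precision rests on the spread over mice.

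The log2 of FPKM plus a pseudocount of 1 was fitted in limma 3.58.1 (R 4.3.3), with the variance trended on level and the 12 mice in a joint model. Genes entered if 4 or more mice had 1 FPKM or more (13148 genes), with two-sided p values adjusted by Benjamini-Hochberg over all of them. Exact two-sided permutation tests used the 70 arrangements of 4 against 4. The fit was tested on simulated data. Groups came from the labels.

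The members and gene lists were chosen with earlier results of these data known. Members were named by size of change in CKD (8 largest), by unadjusted p with iron (5 smallest), when lower in CKD, or for a known kidney role (Ccl2, Ccr2, Ccl5, Cx3cl1, Cx3cr1, Cxcl10, Cxcl12, Cxcr4 and Cxcl16), and the rest are given by role. Of the members, 1 is counted among the 39 but is not reported here. From each list of other genes, up to 3 with the largest rise or fall in CKD are named. Alternatives were other pseudocounts, filters, scalings, weights and thresholds, fits of 2 groups, and each mouse left out in turn.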

Additional observations from a re-analysis of the deposited data

Results flagged for a closer look

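Each member tested was checked for a mouse far from the other 3 of its group (a gap to the nearest mouse, over the group's range, above Dixon's 95% critical value). Of 117 groups of 4 values, 7 were marked, and chance marks about 1 in 20.

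In control mouse 042310, Cxcl10 was at 11.6 FPKM, with the others at 4.76 to 5.14 FPKM, and Ccl28 was at 12.8 FPKM, with the others at 5.87 to 6.89 FPKM. In CKD mouse 022301, Ackr3 was at 18.5 FPKM, below the 22.2 to 22.7 FPKM of the others. In CKD+Fe mouse 062910, Ccl2 was at 18.3 FPKM, below the 31.8 to 33.3 FPKM of the others, and in CKD+Fe mouse 042702, Cxcl16 was at 169.8 FPKM, above the 118 to 125 FPKM of the others. The remaining marks concern values near 0. Cxcr2 was at 0 in control mouse 012822 with the others at 0.0528 to 0.0588 FPKM, and Cxcl3 was at 0.0485 FPKM in control mouse 012811 with the others at 0.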

How the results depend on the processing

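No paired analysis was possible because the groups share no replicate numbers. The depth in reads is unknown, FPKM are relative to each mouse's total, and 4 mice per group leave wide intervals. In CKD against control mice, between 24 members (a filter at a mean of 5 FPKM, 28 tested) and 38 (no filter, 57 tested) were higher, and 28 to 31 with a mouse left out. In the first 2 settings the median log2 fold change was 2.80 and 1.17 for members and 0.40 and 0.29 for all genes. With a mouse left out these medians were 1.84 to 2.14 for members and 0.48 to 0.53 for all genes. The count of members lower moved from 1 to 0 under the filter at a mean of 5 FPKM, 5 under median-of-ratios rescaling, 4 under quantile normalization, 3 at an adjusted p under 0.5, and 0 to 2 with a mouse left out (0 without control mouse 042310, 2 without CKD mouse 021320). Of all genes, 1571 of 9702 were lower under that filter, and 3856, 3363 and 2681 of 13148 under the next 3 settings. Without control mouse 042310, 1726 of all genes were lower, and without CKD mouse 021320, 1627. In CKD+Fe against control mice the count of members lower moved to 0, 4, 3 and 2 under the same 4 settings. Of all genes, 1289 of 9702, then 3618, 2967 and 2388 of 13148, were lower there. Between 22 members (under quantile normalization, beside 19.8% of all genes) and 41 members were higher. In CKD+Fe against CKD mice, 0 members were called under each setting except at an adjusted p under 0.5, where 1 (Cxcl17) was lower.

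Among called values, the signs of Cxcr3 in both comparisons with control mice and of Cxcr6 in CKD+Fe against control mice (0.82, adjusted p = 0.0338, to -0.00233) turned under quantile normalization. In CKD against control mice, Xcl1 turned to -0.0430 with a pseudocount of 0.1, -0.31 after median-of-ratios rescaling, -0.74 after quantile normalization, -0.0168 without the 3 mice that stood apart, with a range of -0.13 to 0.26 with a mouse left out. Cxcl9 turned to -0.28, -0.67 and -0.0369 under the rescalings and without the 3 mice, Cxcr6 to -0.24 and Cxcr3 to -0.21 under quantile normalization. With a mouse left out, the ranges were -0.0783 to 0.42 for Cxcl9, -0.15 to 0.16 for Ackr3 and -0.26 to 0.0237 for Ccl27a. In CKD+Fe against CKD mice they were -0.27 to 0.0386 for Cxcl10, -0.33 to 0.23 for Cxcl12, -0.22 to 0.59 for Ccl5, -0.29 to 0.11 for Ccl20, -0.45 to 0.17 for Cxcl1, -0.72 to 0.10 for Cxcl2, -0.50 to 0.00318 for Ccr2, -0.0462 to 0.37 for Ccl2 and -0.0469 to 0.59 for Ccl8. The cause was not tested.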
